A study of Mus musculus with 3 samples.

Results

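The genes described here make cholesterol and fatty acids, together with the factors that sense sterols and move them within the cell. They were chosen by symbol, and 35 symbols made up the list. A gene was read where the platform annotation gave its symbol as the only symbol of a probe set, a group of short probes against a single transcript, and its brightest probe set stood for it. This gave 34 of 35 genes, read by 80 probe sets, out of 18193 genes and 45101 probe sets on the array. Acat2, the cytosolic thiolase at the head of the mevalonate pathway, was not read by this rule. It has no signal or ratio here, though its promoter is among those searched for motifs below.

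PDL-L2 is an immortalised mouse line derived from periodontal ligament fibroblasts, so all results refer to a single established line. Total RNA of 3 conditions was hybridised to Affymetrix mouse genome arrays, 1 for each. The first condition received the SMARTpool siRNA against endoglin (siENG) and rhBMP-2 at 250 ng/ml, the second the control siRNA pool (siCont) with the same dose of rhBMP-2, and the third siCont with vehicle. rhBMP-2 or vehicle was added 48 h after transfection and left for 12 h, in medium with ascorbic acid and beta-glycerophosphate according to the labels. No array of siENG with vehicle is among the samples, so the siRNA is compared only in the presence of BMP-2. With a single array for each condition the differences below could not be set against a spread between cultures, and they carry no test or p-value.

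Mammalian cells build cholesterol from acetyl-CoA by way of mevalonate, farnesyl diphosphate, squalene and lanosterol. Fatty acids come from the same precursor through malonyl-CoA, and are then elongated and desaturated. Many of the enzymes are transcribed under the control of the SREBP factors, which are held in the endoplasmic reticulum by Scap and the Insig proteins while sterols are plentiful and are released and cleaved when sterols run low.

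The deposited values are signal intensities on a linear scale. Endoglin (Eng), the target of the siRNA, had a signal of 108 on the siENG array, against 299 with siCont and BMP-2 and 286 with siCont and vehicle. The siENG array was brighter as a whole, and the median log2 ratio of probe sets at or above the signal limit of 23 was 0.21 over siCont BMP-2 and 0.22 over siCont vehicle. It was 0.01 for siCont BMP-2 over siCont vehicle. Each log2 ratio below is relative to that median and is called centred, and signals are given as deposited. Beside a ratio stands its robust SD, that of the log2 ratios of all probe sets of similar mean signal. It measures the scatter between 2 arrays over many probe sets, true differences included, and not the scatter between cultures. A gene is called higher or lower here where its centred ratio was past 1.5 or its reciprocal, a log2 value of 0.58. Of the fibroblast markers, Col1a1, Col1a2, Col3a1, Postn and Vim had signals from 2814 to 10255 over the 3 arrays. Others were far dimmer, and Runx2 was not read. Mkx had 101.6, 111.6 and 106.8 on the siENG, siCont BMP-2 and vehicle arrays, and Scx 42.3, 33.6 and 27.3. Aspn, a marker of periodontal ligament, had 8.3, 2.4 and 0.8 in the same order, within the range of bacterial control probe sets (up to 13.1). Of the 5 adipocyte markers read, Adipoq, Cidec, Lep and Pparg were in that range on every array, and Fabp4 had 252, 397 and 261 in the same order. In RNA from whole cultures, fewer cells of a type and less RNA per cell cannot be told apart.

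**Figure D1:**
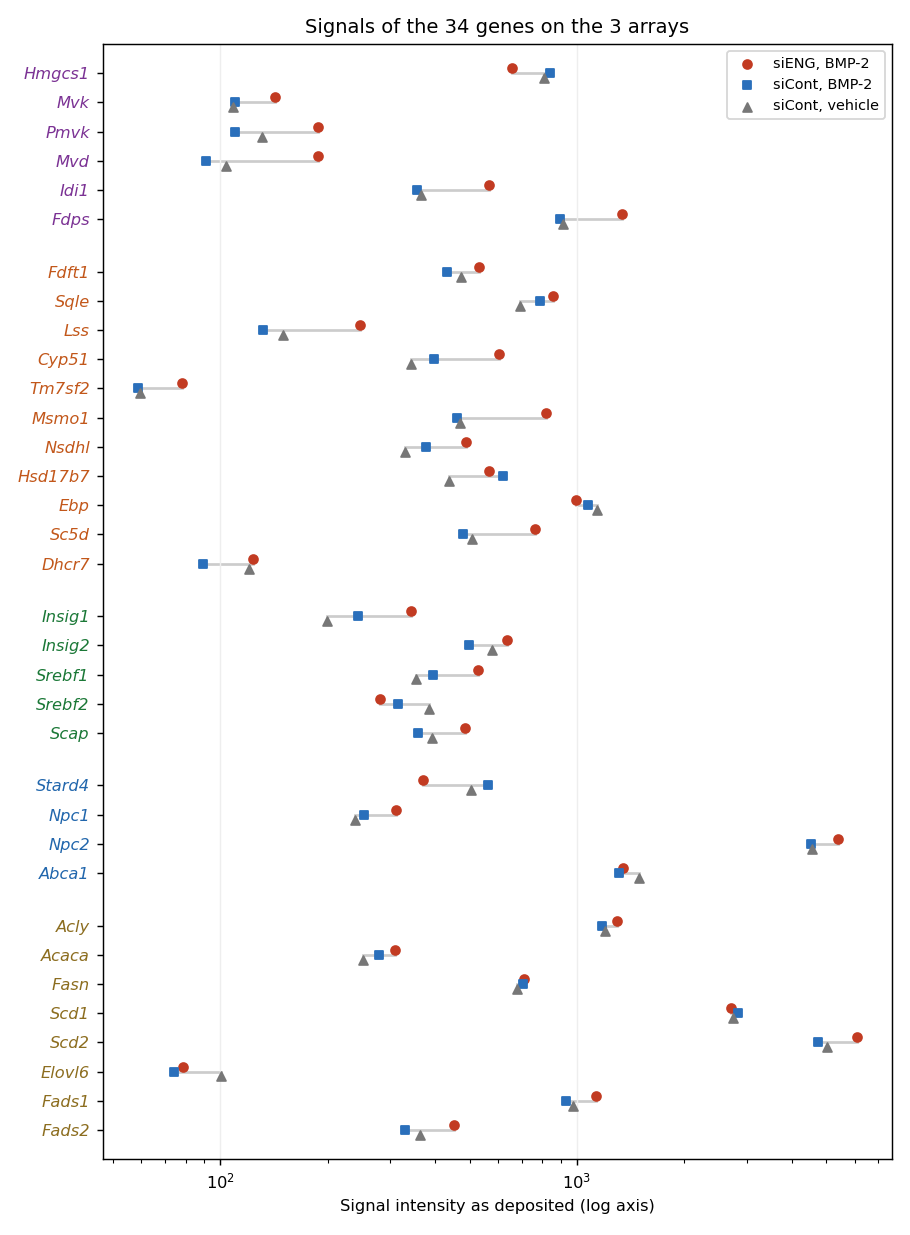
Signal intensity as deposited (horizontal log axis) of each of the 34 genes (rows, coloured by role) on the siENG BMP-2 array (circles), the siCont BMP-2 array (squares) and the siCont vehicle array (triangles), with 1 array per condition. Grey lines join the lowest and the highest signal of a gene. The circle lies to the right of the others in 26 of 34 genes, and the siENG array was brighter as a whole.

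All 34 genes were well within the measured range, with 59.0 the lowest signal of any of them. With BMP-2 and no knockdown, the signals of these genes stayed close to those with vehicle. Of 34 genes, 0 were higher past 1.5 and 0 were lower, where 4.82% of all 10810 genes kept were higher and 4.44% lower. Among genes with a signal of at least 152, the 75th percentile, 1.81% were higher and 1.01% lower, and 0 of the 27 members at that level were either. The median centred log2 ratio of the 34 genes was -0.04, with a range of -0.45 to 0.49, beside a median of 0.00 over all genes kept. In 22 of 34 genes the ratio was within 1 robust SD of 0.

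Hsd17b7, which reduces the keto sterol formed when methyl groups are removed from the sterol ring, had the largest ratio with BMP-2. Its signal was 569 with siENG and BMP-2, 621 with siCont and BMP-2, and 439 with siCont and vehicle. The centred log2 ratio of siCont BMP-2 over vehicle was 0.49, with a robust SD of 0.15, and it was the single member of the 34 past 2 robust SDs. A further pair of its probe sets, at or above the signal limit, had log2 ratios of 0.44 and 0.74 in the same comparison. All 3 ratios were thus above 0, the last past 1.5. For siENG with BMP-2 over vehicle, the log2 ratio of the brightest was 0.15 after centring (robust SD 0.30) and 0.37 as deposited.

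At the other end, Elovl6, which elongates palmitate, had signals of 78.6, 74.2 and 101 with siENG BMP-2, siCont BMP-2 and siCont vehicle. Both BMP-2 arrays were below the vehicle array, with a centred log2 ratio of -0.45 (robust SD 0.29) for siCont BMP-2 and of -0.58 (robust SD 0.42) for siENG BMP-2, just short of the limit. Its second probe set had -0.49 and -0.41. Dhcr7, the reductase of the last step to cholesterol, had 124, 89.3 and 120.1, lowest on the siCont BMP-2 array. Its centred log2 ratio over vehicle was -0.44 (robust SD 0.26) for siCont BMP-2 and -0.18 (robust SD 0.37) for siENG BMP-2. Hsd17b7, Elovl6 and Dhcr7 were singled out after their values were seen.

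With endoglin knockdown in the presence of BMP-2 the ratios were larger, and they did not run in the same direction along the pathway. The scatter of all probe sets was larger too, with robust SDs at the signals of the members of 0.22 to 0.42, beside 0.11 to 0.34 for BMP-2 over vehicle. Relative to siCont with BMP-2, 3 of 34 genes were higher past 1.5 with siENG, Mvd, Lss and Msmo1, and 1 was lower, Stard4. These are 8.82% and 2.94% of the members, beside 7.62% and 7.99% of all 10854 genes kept, so the number past the limit was close to the background on the higher side and below it on the lower side. Among genes with a signal of at least 152, 3 of 30 members were higher and 2 were lower, beside 4.21% and 4.91% of all genes. At a ratio of 2, 0 members were higher or lower, beside 2.32% and 2.7% of all genes. As deposited, without centring, 7 members were higher past 1.5 (Pmvk, Mvd, Idi1, Lss, Cyp51, Msmo1 and Sc5d) and 1 lower, where 17% of all genes were higher and 4.44% lower, and Mvd alone was past 2, beside 4.03% of all genes. This comparison shares the siCont BMP-2 array with that of BMP-2 over vehicle, so a high or low reading there enters both.

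**Figure D2:**
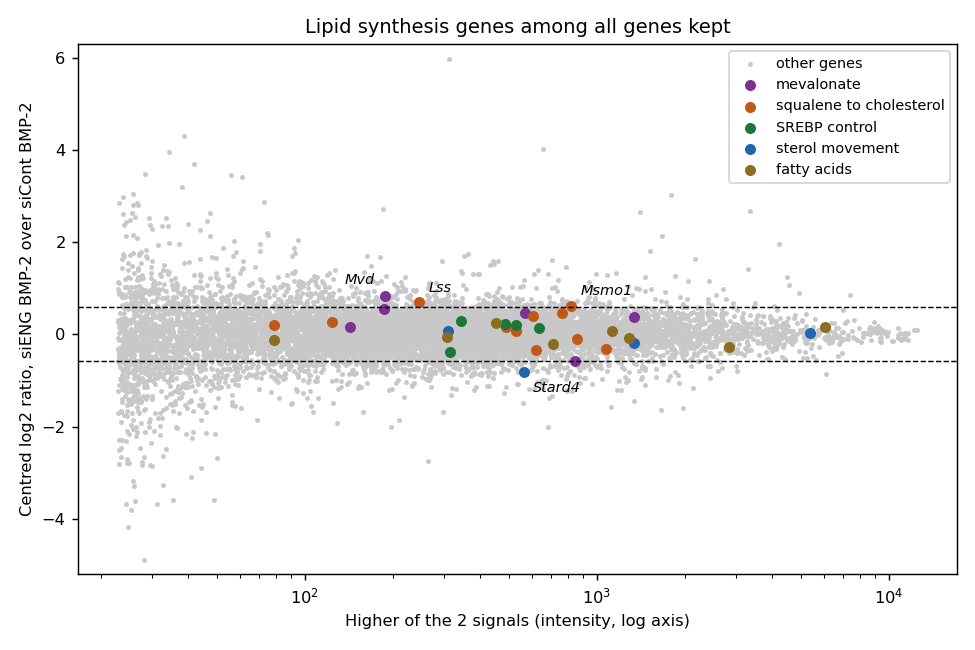
Vertical axis, centred log2 ratio of siENG to siCont, both with BMP-2, against the higher of the 2 signals (horizontal log axis), with 1 point per gene kept and 1 array per condition. Coloured points are the 34 lipid synthesis genes by role, grey points all other genes, and dashed lines mark ratios of 1.5 and its reciprocal. The named genes Mvd, Lss, Msmo1 and Stard4 lie outside the dashed lines, by less than many grey points of similar signal.

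In the mevalonate pathway, 5 of 6 genes had a centred ratio above 0 with siENG, where 53.7% of all genes kept did. The median log2 ratio was 0.42, beside 0.03 over all genes kept. Mvd, the decarboxylase that yields isopentenyl diphosphate, had signals of 188 with siENG, 91.5 with siCont and BMP-2 and 104 with vehicle. The siENG array stood well above the others, with a centred log2 ratio of 0.83 (robust SD 0.39) over siCont BMP-2 and 0.63 (0.37) over vehicle. Its second probe set had signals of 190, 89.5 and 94.1 and log2 ratios of 0.87 and 0.79.

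The neighbouring enzymes had smaller ratios. Pmvk, which makes mevalonate diphosphate, had signals of 188, 110 and 131 on the siENG, siCont BMP-2 and vehicle arrays, and a centred log2 ratio of 0.56 (robust SD 0.39) over siCont BMP-2. Idi1, which isomerises isopentenyl diphosphate, had 569, 356 and 365 (0.47, robust SD 0.30), and Fdps, which joins the isoprene units to farnesyl diphosphate, 1339, 895 and 914 (0.37, robust SD 0.22). For Idi1 the ratio rested on the brighter probe set, the other having 0.07. Mvk, the mevalonate kinase, had 143, 110 and 109, a ratio within its robust SD.

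Hmgcs1, which condenses acetyl-CoA units to hydroxymethylglutaryl-CoA and so feeds the pathway, had the single ratio below 0 in this group. Its brightest probe set had signals of 656 with siENG, 841 with siCont and BMP-2 and 807 with vehicle. The siENG array was the lowest, with centred log2 ratios of -0.57 (robust SD 0.27) over siCont BMP-2 and -0.52 (0.28) over vehicle, short of the limit by little. The other bright probe sets of Hmgcs1 had log2 ratios of -1.01, -0.48 and -0.26 over siCont BMP-2. The first of these had signals of 466, 812 and 746.5, a centred ratio below 0.5. The dim remaining probe set, with signals of 29.2, 23.9 and 15.5, had 0.08. All 4 bright probe sets thus had a centred ratio below 0, 1 of them past 1.5, and the smallest, -0.26, was within its robust SD of 0.27.

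From squalene to cholesterol, 8 of 11 genes had a centred ratio above 0 with siENG, beside 53.7% of all genes kept, and the median log2 ratio was 0.20, beside 0.03. Lss, which closes squalene epoxide into lanosterol, had signals of 247 with siENG, 132 with siCont and BMP-2 and 149.9 with vehicle, a centred log2 ratio of 0.69 (robust SD 0.34) over siCont BMP-2. Its second probe set, with 161, 113 and 133, had 0.30, within the robust SD of 0.39, so the place of Lss past 1.5 rests on a single probe set. Msmo1, an oxidase that takes methyl groups from the sterol ring, had 818, 462 and 471. The centred log2 ratio was 0.61 (robust SD 0.27) over siCont BMP-2 and 0.58 (0.28) over vehicle, the second just below the limit. Its other probe set had signals below 14 on every array and was not read.

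Cyp51, the demethylase of lanosterol, had signals of 607, 398 and 344 in the same order of arrays. It was lowest with vehicle, and its centred log2 ratio was 0.40 (robust SD 0.30) over siCont BMP-2 and 0.60 (0.30) over vehicle, past the limit by little. Another probe set of Cyp51, with 215, 151 and 141.5, had 0.30 and 0.38, so the call over vehicle rests on the brightest probe set. Sc5d, a sterol desaturase, had 762, 478 and 507 (0.46 over siCont BMP-2, robust SD 0.27) in its brightest probe set, with 0.02 and -0.47 in the others. Nsdhl, a sterol dehydrogenase, had 489, 377 and 329, and Tm7sf2, a sterol reductase, 78.3, 59.0 and 59.5, both within 1 robust SD over siCont BMP-2.

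Of the same stretch, 3 enzymes had a centred ratio below 0. Sqle, squalene epoxidase and a main point of control of the pathway, had 854, 787 and 694, a centred log2 ratio of -0.09 (robust SD 0.27) over siCont BMP-2. Ebp, a sterol isomerase, had 997, 1074 and 1138 (-0.32, robust SD 0.27), and was lowest with siENG. Hsd17b7, described above, had -0.34 over siCont BMP-2. Both Fdft1 and Dhcr7 were above 0 by less than 1 robust SD. Fdft1, squalene synthase, had 530.5, 434 and 472, a ratio of 0.08 (robust SD 0.30), and Dhcr7 had 0.26 (robust SD 0.39).

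**Figure D3:**
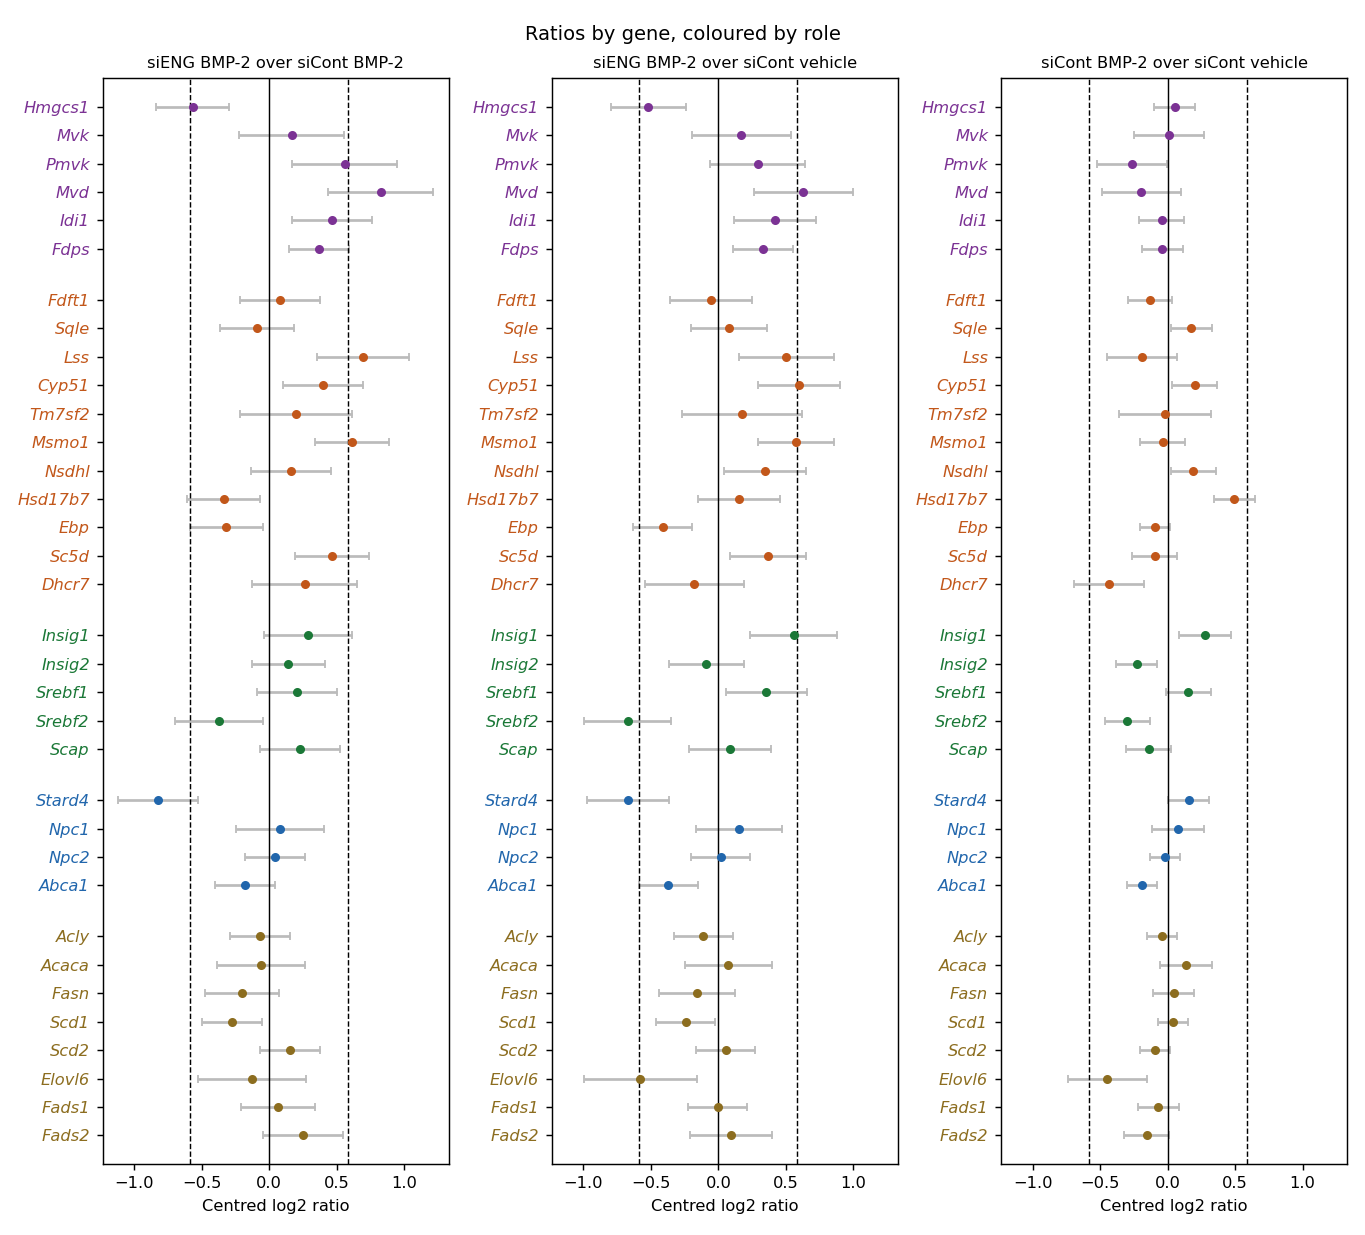
Centred log2 ratio (horizontal axes) of each of the 34 genes (rows, coloured by role) in 3 panels, for siENG relative to siCont (both with BMP-2), siENG with BMP-2 relative to siCont vehicle, and siCont with BMP-2 relative to siCont vehicle. Bars are the robust SD of log2 ratios of probe sets of similar signal, each point rests on 2 arrays, and dashed lines mark ratios of 1.5 and its reciprocal. Mvd and Stard4 lie past the dashed lines on opposite sides in both panels with siENG, and no gene does in the panel without it.

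The promoters of the 3 genes higher with siENG, and of Hmgcs1, chosen after its values were seen, are shown with the motifs known to serve SREBP-dependent transcription. They come from RefSeq on GRCm38.p6, whose table held 35 promoters of 27 member genes, each reaching from 250 bases before to 50 bases after a transcript start. The 250 bases before the start are printed, 5′ to 3′ on the strand of the gene, with matches in capitals. The motifs searched, on both strands and with overlaps allowed, were the sterol regulatory element TCACNCCAC, the E-box CACGTG, the CCAAT box, spelled by its name, and the GC box GGGCGG.
Mvd, chr8:122443423-122443672, minus strand: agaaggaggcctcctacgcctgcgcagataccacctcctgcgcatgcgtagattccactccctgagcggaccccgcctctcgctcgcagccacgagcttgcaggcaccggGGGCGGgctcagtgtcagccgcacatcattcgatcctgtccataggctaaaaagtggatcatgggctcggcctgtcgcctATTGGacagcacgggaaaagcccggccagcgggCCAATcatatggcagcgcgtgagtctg
Lss, chr10:76531355-76531604, plus strand: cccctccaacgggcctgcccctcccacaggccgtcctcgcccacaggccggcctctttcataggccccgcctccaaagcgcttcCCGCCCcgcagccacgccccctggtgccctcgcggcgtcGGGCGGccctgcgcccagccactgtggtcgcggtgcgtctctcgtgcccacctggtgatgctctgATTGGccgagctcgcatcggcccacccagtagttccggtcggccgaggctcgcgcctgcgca
Msmo1, chr8:64733579-64733828, minus strand: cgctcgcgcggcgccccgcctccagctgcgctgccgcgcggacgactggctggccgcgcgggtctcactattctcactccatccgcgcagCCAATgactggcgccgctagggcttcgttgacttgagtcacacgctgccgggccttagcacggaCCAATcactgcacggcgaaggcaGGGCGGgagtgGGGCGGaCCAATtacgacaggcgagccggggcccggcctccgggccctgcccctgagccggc
Hmgcs1, chr13:119690101-119690350, plus strand: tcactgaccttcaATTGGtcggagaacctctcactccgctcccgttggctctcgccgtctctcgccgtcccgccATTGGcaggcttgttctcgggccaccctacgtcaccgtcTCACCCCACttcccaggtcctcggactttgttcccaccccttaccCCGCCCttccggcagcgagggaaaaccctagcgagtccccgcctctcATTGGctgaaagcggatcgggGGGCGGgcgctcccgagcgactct

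Mvd, Lss and Msmo1, the genes higher with siENG, held CCAAT and GC boxes and no match to the sterol regulatory element or the E-box. Hmgcs1, whose brightest probe set was short of the limit with siENG, held a sterol regulatory element that begins 137 bases before the start, with CCAAT boxes on either side. It was the single member of 27 with such a match, 2.86% of member promoters beside 1.24% of all 32851 promoters. A CCAAT box was found in 62.9% of member promoters beside 37.4% of all, a GC box in 77.1% beside 35.7%, and an E-box in 20% beside 7.15%. The E-boxes lay in Hsd17b7, Sc5d, Dhcr7, Insig1, Scap and Abca1. A match is a run of letters in this window and was not tied to any ratio here. Spellings other than those given were not searched, so the lack of a match does not show that an element is absent. No promoter entry was matched for Fdps, Fdft1, Sqle, Stard4, Npc1, Scd1, Scd2 and Fads1.

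Among the factors that control SREBP, 4 of 5 had a centred ratio above 0 over siCont BMP-2, beside 53.7% of all genes kept. Each of these 4 was within 1 robust SD of 0, the median log2 ratio was 0.21, beside 0.03, and 0 were past 1.5. Insig1, which retains SREBP in the endoplasmic reticulum and is itself a known target of it, had signals of 343 with siENG, 243 with siCont and BMP-2 and 199.8 with vehicle. Its centred log2 ratio was 0.28 (robust SD 0.33) over siCont BMP-2, 0.56 (0.32) over vehicle and 0.28 (0.19) for siCont BMP-2 over vehicle. Insig2, its paralogue, had 635, 498 and 579.8, within 1 robust SD with siENG. Srebf1, which encodes the SREBP that favours fatty acid genes, had 528, 395 and 354, and Scap 485, 358 and 392, both within 1 robust SD over siCont BMP-2.

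Srebf2, which encodes the SREBP that favours cholesterol genes, had signals of 281 with siENG, 314.5 with siCont and BMP-2 and 384 with vehicle. It was lowest with siENG and highest with vehicle, with a centred log2 ratio of -0.67 (robust SD 0.32) for siENG BMP-2 over vehicle and of -0.30 (0.17) for siCont BMP-2 over vehicle. The second probe set of Srebf2 did not share this. Its signals were 225, 177 and 185, and its log2 ratio was 0.06 for siENG BMP-2 over vehicle, so the call rests on the brighter probe set.

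The genes that move sterols had a median log2 ratio of -0.07 over siCont BMP-2, and of 0.14 without centring. Among them Stard4, which carries cholesterol between membranes, had the lowest ratio of the 34. Its signals were 369.7 with siENG, 565 with siCont and BMP-2 and 505 with vehicle, a centred log2 ratio of -0.82 (robust SD 0.30) over siCont BMP-2 and -0.67 (0.30) over vehicle. The other probe sets had -0.62 and -0.81 over siCont BMP-2, and -0.35 and -0.75 over vehicle. All 3 therefore read Stard4 lowest on the siENG array, each past 1.5 against siCont BMP-2. As deposited, the log2 ratio of the brightest was -0.61 over siCont BMP-2, past the limit, and -0.45 over vehicle, short of it.

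The other carriers were within 1 robust SD over siCont BMP-2. Npc2, the soluble carrier of cholesterol in lysosomes, had 5375, 4522 and 4560 on the siENG, siCont BMP-2 and vehicle arrays, a centred log2 ratio of 0.04 (robust SD 0.22) over siCont BMP-2. For BMP-2 over vehicle its brightest probe set had -0.02, and the others 0.06, 0.36 and 2.15, the last with signals of 20, 27.7 and 6.2. The mean over these probe sets was 0.64, past 1.5, so the place of Npc2 short of the limit depends on reading its brightest probe set. Npc1, its partner in the lysosomal membrane, had 310.2, 254 and 239.5 on the same arrays. Abca1, which exports cholesterol to apolipoproteins, had 1344, 1316 and 1491, with centred log2 ratios of -0.37 (robust SD 0.22) for siENG BMP-2 over vehicle and -0.19 (0.11) for siCont BMP-2 over vehicle, short of the limit.

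**Figure D4:**
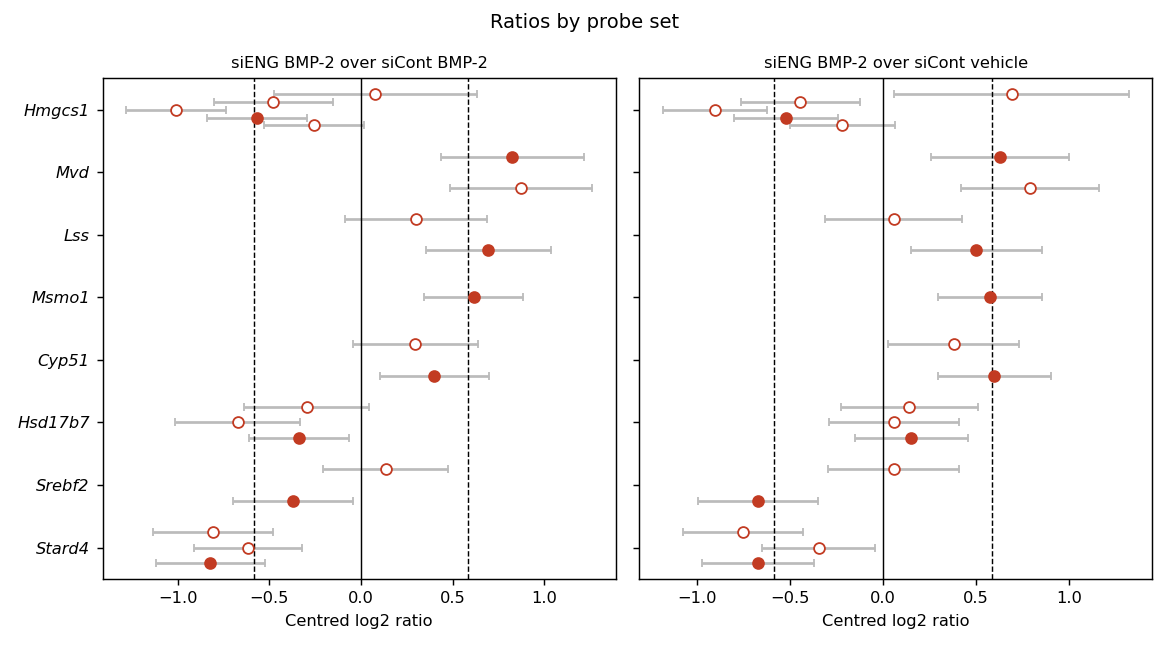
Centred log2 ratio (horizontal axes) of every probe set at or above the signal limit of 8 genes (rows), for siENG relative to siCont (both with BMP-2) and relative to siCont vehicle, with 1 array per condition. Filled circles are the brightest probe set, which stands for the gene, bars are the robust SD of probe sets of similar signal, and dashed lines mark ratios of 1.5 and its reciprocal. The 3 probe sets of Stard4 and both of Mvd lie on a single side of 0, and those of Srebf2 on opposite sides.

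The genes of fatty acid synthesis lay close to 0. Over siCont BMP-2, 3 of 8 had a centred ratio above 0 with siENG, beside 53.7% of all genes kept, the median log2 ratio was -0.07, and 0 were past 1.5 in any of the 3 comparisons. Without centring that median was 0.14, so its sign depends on the scaling. Fasn, the fatty acid synthase, had 711 with siENG, 706.5 with siCont and BMP-2 and 681 with vehicle, the smallest spread of signals as deposited among the 34. Acaca, the carboxylase that makes malonyl-CoA, had 308, 278 and 251, and Acly, which makes cytosolic acetyl-CoA from citrate, 1295.5, 1175 and 1202. All were within 1 robust SD over siCont BMP-2.

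Scd1 and Scd2, paralogous desaturases that make oleate and palmitoleate, stood on opposite sides of 0. Scd1 had 2699.6, 2831 and 2739, a centred log2 ratio of -0.28 (robust SD 0.22) over siCont BMP-2, and Scd2 had 6078, 4735 and 5023, a ratio of 0.15 (robust SD 0.22). The second probe set of Scd1 had -0.06, and the others of Scd2 0.16 and 0.24, so the Scd1 ratio rests on its brighter probe set. Fads1 and Fads2, the desaturases of polyunsaturated fatty acids, had 1130.1, 933 and 973, and 452, 329 and 364, both within 1 robust SD over siCont BMP-2.

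Against siCont vehicle, which joins the effects of BMP-2 and of the siRNA, 2 of 34 genes were higher past 1.5 on the siENG array, Mvd and Cyp51, and 2 were lower, Srebf2 and Stard4. These are 5.88% each, beside 7.68% and 8.31% of all 10847 genes kept. Among genes with a signal of at least 152, 1 of 30 members was higher (Mvd) and 2 were lower, beside 4.19% and 5.25%. As deposited, 7 members were higher and 0 lower, where 17.4% of all genes were higher and 4.55% lower. The median centred log2 ratio of the members was 0.08, and 0.31 in the mevalonate pathway, beside 0.03 over all genes kept. The siENG array is the same in this comparison and in that over siCont BMP-2, so the ratios of Mvd and Stard4 are not independent readings.

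The siENG array differed in other ways as well, and their part in these ratios was not tested. Of 9 hypoxia-responsive genes, listed with earlier results of these data known, 8 were kept. Of these, 6 were at a centred ratio of 2 or more over siCont BMP-2, beside 2.32% of all genes kept. The summed signal of the 9 genes was 8441 on the siENG array, 1628 with siCont and BMP-2 and 1917 with vehicle. Pdk1, which keeps pyruvate from becoming mitochondrial acetyl-CoA, had 656, 34.8 and 49.2. Cd68, a lysosomal marker of macrophages, had 118, 50 and 71, while the leukocyte marker Ptprc was below 9 on every array. The summed signal of 6 leukocyte markers was 221.5, 132 and 145 in the same order. Of the 3 kept, 1 was higher past 2 over siCont BMP-2, beside 2.32% of all genes kept. Those of 4 epithelial and 4 endothelial markers lay between 18 and 80.5 on every array.

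Further genes of the same pathways were read in the same way. Of 26 other sterol genes listed, 23 were read and 18 kept. Over siCont BMP-2, 0 were higher past 1.5 with siENG and 1 was lower, Ch25h, which makes an oxysterol that blocks SREBP processing, with signals of 13.8, 25.7 and 23, close to the limit of what was read. Of 30 other fatty acid genes, 28 were read and 21 kept, with 3 higher (Lpin1, Mlycd and Mcat) and 2 lower (Elovl1 and Acsl4). Of all genes kept in this comparison, 7.62% were higher past 1.5 and 7.99% lower. Lpin1, a phosphatidate phosphatase of glycerolipid synthesis, had 408 with siENG, 210.1 with siCont and BMP-2 and 180 with vehicle, a centred log2 ratio of 0.75 (robust SD 0.33) over siCont BMP-2 and 0.96 (0.32) over vehicle. Acsl4, which activates arachidonate, had 574, 748 and 471, a log2 ratio of 0.66 (robust SD 0.15) for siCont BMP-2 over vehicle and -0.59 (0.27) for siENG over siCont, both of which use the siCont BMP-2 array. Genes of the fatty acid list were named after their values were seen.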

How the data were processed

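PDL-L2 RNA from each of the 3 conditions was hybridised to 1 Affymetrix array. The authors deposited a linear signal intensity per probe set. The submitters' processing notes name GCOS 1.4, but no source used here states the signal algorithm or scaling. A value listed at 0 (1 with siCont and BMP-2, 3 with vehicle) was replaced by 0.1, and 64 control probe sets were left out.

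Gene names came from the annotation of the array, updated through gene identifiers to RefSeq GRCm38.p6. A single symbol was found for 34945 of the remaining probe sets. To be kept, a gene needed a signal of 23 or more, the median over the 3 arrays, on at least 1 of the 2 arrays compared. Log2 ratios were centred on the median of probe sets past that limit. The robust SD (scaled median absolute deviation) was taken in 20 bins of mean log2 signal over all probe sets. With 1 array per condition no test was possible, and the number of arrays limits the precision. The calculation of ratios was checked on simulated arrays with known changes. Their scatter was that of siCont BMP-2 over vehicle, so the larger scatter seen with siENG was not simulated.

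Members and lists were chosen with earlier results of these data known. Signals were to be given for each member past 1.5 in a comparison and for the 2 brightest of each role, and the remaining members were added after their values were seen. Alternatives tried were no centring, scaling to a 2% trimmed mean, quantile normalization, lowess centring (fraction 0.3), dropping the signal limit, raising it to the 75th percentile, flooring signals at the median, the mean over probe sets, probe sets with the plain suffix only, and counting past 2 robust SDs. Python 3.11.15, numpy 2.4.6, pandas 2.3.3, statsmodels 0.14.6 and matplotlib 3.10.9 were used.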

Additional observations from a re-analysis of the deposited data

How the results depend on the processing

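Counts of members past a limit were small, and several genes lay close to it. With siENG relative to siCont, both with BMP-2, the 3 members higher past 1.5 became 7 without centring, with 1 past 2, and 1, Mvd, where a plain-suffix probe set stood for each gene that had such a probe set. The other suffixes mark probes shared between transcripts or sequences. They are those of the brightest probe sets of Lss, Msmo1, Mvd, Hmgcs1, Hsd17b7, Pmvk, Fdft1 and Srebf1. The 1 member lower past 1.5 became 2 at the 75th percentile limit, 2 when counted past 2 robust SDs, and 3 with the plain suffix, with 1 past 2. For siENG BMP-2 over siCont vehicle, the 2 higher became 7 without centring, 4 with no signal limit, and 1 with trimmed-mean scaling, quantile normalization, lowess centring, the limit at the 75th percentile, the mean over probe sets, or the count past 2 robust SDs. The 2 lower became 0 without centring, 1 with the mean over probe sets, and 3 with trimmed-mean scaling (adding Elovl6) or the plain suffix (adding Hmgcs1). For siCont BMP-2 over vehicle, the 0 higher became 1 with the mean over probe sets (Npc2), the plain suffix (Hsd17b7) or the count past 2 robust SDs (Hsd17b7). The cause of these moves was not tested, other than that the siENG array is brighter as deposited.

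The median log2 ratio of all members ran over the alternatives from 0.08 to 0.36 for siENG relative to siCont with BMP-2, and that of the mevalonate pathway from 0.32 to 0.63. The members past 1.5 in the values reported kept their sign under every alternative that gave them a value. Msmo1 had none with the plain suffix, since that probe set had signals of 13.9, 12.8 and 12.5, below the signal limit. Its log2 ratio for siENG relative to siCont was -0.09. Of the members past 1.5 only under an alternative, some kept their sign, such as Pmvk for siENG relative to siCont with BMP-2 (0.53 to 0.77). Npc2 for siCont BMP-2 over vehicle (-0.04 to 0.64) and Sc5d for siENG BMP-2 over siCont vehicle (-0.05 to 0.59) did not. No paired analysis was possible because each condition has 1 array, and for the same reason no array could be left out. Dim signals limit the reading of Tm7sf2, which had the largest robust SD of the members.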

Other observations

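For siENG with BMP-2 over siCont vehicle, 1 of 18 other sterol genes kept was higher past 1.5 and 1 lower, and 3 of 22 other fatty acid genes were higher and 1 lower, beside 7.68% and 8.31% of all genes. Dhdds, a subunit of the enzyme that lengthens farnesyl diphosphate towards dolichol, had signals of 289 with siENG, 195 with siCont and BMP-2 and 142.5 with vehicle, a centred log2 ratio of 0.80 (robust SD 0.35) over vehicle, while Nus1, the other subunit, had -0.13 (robust SD 0.28). Hsd17b12, a reductase of fatty acid elongation, had 1256, 804.5 and 644 (0.74, robust SD 0.28), and Elovl5, which elongates polyunsaturated fatty acids, had 1883, 1163 and 1046 (0.63, robust SD 0.22). Other elongation genes short of the limit lay on both sides of 0 in the same comparison. Elovl1 had -0.49, Hacd3 -0.43, Hacd2 -0.35 and Tecr -0.20, while Elovl4 had 0.46 and Hacd1 0.29. Mylip, a ubiquitin ligase for lipoprotein receptors, had 127, 144 and 86.3, with a log2 ratio of 0.73 (robust SD 0.26) for siCont BMP-2 over vehicle. Elovl7, a further elongase, had 14, 14 and 24.6, close to the signal limit, with a log2 ratio of -1.03 (robust SD 0.63) for siENG with BMP-2 over vehicle. All but Elovl7 were named after their values were seen.

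Probe sets of a member did not always point the same way. With siENG relative to siCont in the presence of BMP-2, 21 members had several probe sets at or above the signal limit, and in 13 of them all lay on a single side of 0. The median range between probe sets of a gene was 0.22 on the log2 scale.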
